A study of Mus musculus with 4 samples.

Results

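The genes described here are 10 checkpoint genes outside the CD28 family of receptors, taken by name from the 52636 genes of a mouse RNA-seq count table. They are the receptor genes Havcr2 (which encodes TIM-3), Lag3, Tigit, Cd96, Cd226 and Cd160, the genes Lgals9 and Ceacam1 for ligands of TIM-3, and Procr and Pdpn. All 10 names were found, each on 1 row, and all 10 passed the filter on low counts. Of the 4 libraries, 2 were labelled E4BP4-cKO, a conditional knockout of the transcription factor E4BP4 that the gene Nfil3 encodes, and 2 were labelled wild-type. Every library came from C57BL/6 spleen: naive CD4 T cells were kept for 3 days in medium with the cytokines IL-21 and IL-6, each at 10 ng/ml, and antibodies to IFN-γ and IL-4 (10 µg/ml each) and to TGF-β (20 µg/ml), a culture that favours T follicular helper (Tfh) cells. The sources used here give no Cre driver, deleted exon, age, number of mice or pooling. The p-values therefore measure the spread between these libraries, part of which may be technical. Within each group, the 2 libraries also differed in Xist, as given below.

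TIM-3, LAG-3, TIGIT, CD96 and CD160 are surface receptors that restrain T cells, mostly after repeated stimulation, and CD226 is an activating receptor. TIGIT, CD96 and CD226 all bind the nectin-type ligand CD155 (Pvr), so that TIGIT competes with CD226. LAG-3 binds MHC class II, CD160 binds HVEM (Tnfrsf14), and TIM-3 binds galectin-9 (Lgals9), CEACAM1 and HMGB1. Procr encodes the endothelial protein C receptor and Pdpn encodes podoplanin. In mouse T cells both are known as members of a group of co-inhibitory genes that the cytokine IL-27 induces together with Havcr2, Lag3, Tigit and Il10, through the transcription factors encoded by Prdm1 and Maf. In mouse helper T cells, E4BP4 itself is known as an inducer of Havcr2 and Il10.

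Nfil3, the targeted gene, went against the labels. It stood at 178.8 and 216 CPM (counts-per-million, scaled by library size and TMM factor) in the pair labelled E4BP4-cKO, against 13.3 and 14.8 CPM in the pair labelled wild-type. Groups are therefore named by their labels, and the directions given say nothing of what a loss of E4BP4 does. Total counts ran from 19057077 to 26579592 per library, and 1 count was worth between 0.0385 and 0.0546 CPM. The T cell markers Cd3d, Cd3e, Cd3g, Cd4, Cd28 and Trac were present in every library, with summed levels of 2260 and 2790 CPM in the pair labelled E4BP4-cKO and 2210 and 2270 CPM in the pair labelled wild-type. Of 5 Tfh markers, Icos was called higher in the pair labelled E4BP4-cKO (log2 fold change 0.77, edgeR adjusted p = 0.0485). Pdcd1, Bcl6 and Il21 had lower levels there without overlap (-0.69, -0.47 and -0.72), as did 33.6% of all genes tested. They were not called by edgeR, and DESeq2 called Pdcd1 lower (adjusted p = 0.0133). Cxcr5, named after its values were seen, stood between 5.73 and 8.57 CPM over all 4 libraries. Xist counts were 1 and 21517 in E4BP4-cKO replicates 1 and 2, and 28571 and 17 in wild-type replicates 1 and 2. Each group thus held 1 library with abundant Xist and 1 with almost none, and the replicate numbers do not match that split.

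Stretches upstream of the start of 5 genes are shown because these genes had log2 fold changes above 1 and were called, and have an entry in RefSeq's promoter table (build GRCm38.p6); 8 of the 10 genes had an entry there, and Lag3 and Cd226 had none. Each is written from its 5′ end on the strand of the gene and leaves out any base inside the gene as the deposited table gives it. The letters of 3 motifs were searched on both strands in the 250 bases before each start. These were a loose form of the D-box that E4BP4 and related factors bind (TTANGTAA, or TTACNTAA on the other strand), the STAT motif TTCNNNGAA and the AP-1 motif TGANTCA. N stood for any base, so a D-box match here need not be a site that E4BP4 binds. No match overlapped another in these genes. Capitals mark the matches.
Tigit: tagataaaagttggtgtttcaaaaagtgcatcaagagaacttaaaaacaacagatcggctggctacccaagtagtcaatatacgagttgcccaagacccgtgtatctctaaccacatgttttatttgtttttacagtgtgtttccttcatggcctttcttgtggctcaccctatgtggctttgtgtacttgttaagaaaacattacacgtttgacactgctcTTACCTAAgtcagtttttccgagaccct
Havcr2: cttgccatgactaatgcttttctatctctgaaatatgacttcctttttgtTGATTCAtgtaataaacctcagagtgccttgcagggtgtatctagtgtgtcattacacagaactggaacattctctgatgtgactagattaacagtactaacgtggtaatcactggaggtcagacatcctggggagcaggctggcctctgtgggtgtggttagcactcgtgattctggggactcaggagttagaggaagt
Procr: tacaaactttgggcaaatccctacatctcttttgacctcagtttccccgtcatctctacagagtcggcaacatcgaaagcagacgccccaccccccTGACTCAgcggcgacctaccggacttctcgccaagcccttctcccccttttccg
Cd96: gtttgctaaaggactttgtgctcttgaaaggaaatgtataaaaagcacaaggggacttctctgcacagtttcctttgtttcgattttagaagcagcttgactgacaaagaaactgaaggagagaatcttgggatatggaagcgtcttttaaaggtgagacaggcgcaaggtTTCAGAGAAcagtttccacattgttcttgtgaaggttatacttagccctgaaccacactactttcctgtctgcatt
Pdpn: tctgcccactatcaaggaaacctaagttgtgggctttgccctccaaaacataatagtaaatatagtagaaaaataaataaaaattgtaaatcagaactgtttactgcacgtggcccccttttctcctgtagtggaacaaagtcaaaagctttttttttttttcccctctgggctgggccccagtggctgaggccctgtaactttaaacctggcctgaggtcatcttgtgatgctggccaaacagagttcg
The stretches lie at chr16:43664185-43664434 on the minus strand (Tigit), chr11:46454681-46454930 on the plus strand (Havcr2), chr2:155750967-155751116 on the plus strand (Procr), chr16:46120252-46120498 on the minus strand (Cd96) and chr4:143299565-143299814 on the minus strand (Pdpn). Distances are counted back from RefSeq's start. That start is the deposited one for Tigit and Pdpn, and lies 100 bases inside the deposited gene for Procr and 3 bases inside it for Cd96. For Havcr2 it lies 4 bases upstream of the deposited start. Tigit held a match to this loose D-box form from 28 to 21 bases before its start, as 2.06% of all 32851 promoters in the table do. Havcr2 and Procr each held an AP-1 match, at 200 to 194 and 154 to 148 bases before the start, as 6.75% of promoters do. Cd96 held a STAT match from 79 to 71 bases before the start, as 7.02% of promoters do, and Pdpn held none of the 3 motifs. Of the other genes in the table, Cd160 held a STAT match at 234 to 226 bases before 1 of its starts, and Lgals9 and Ceacam1 held no match. For Tigit, the GENCODE M21 annotation gives other gene coordinates than the deposited table, and the RefSeq bases after the start were not found in its transcripts. These matches describe the letters only.

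Of the 10 checkpoint genes, 7 were higher and 0 lower in the pair labelled E4BP4-cKO (the 2 libraries so labelled) by edgeR's quasi-likelihood test, at an adjusted p under 0.05 over all genes. Over the whole table, 7.68% of the 15503 genes tested were higher and 6.53% lower, 14.2% in all. The 7 were Procr, Pdpn, Havcr2, Tigit, Lag3, Cd96 and Lgals9, and the 3 that were not called were Cd226, Cd160 and Ceacam1. The same count of 7 higher and 0 lower was found at an unadjusted p under 0.05, with DESeq2 and with limma-voom. The median log2 fold change of the 10 was 1.5, beside 0.02 over all genes tested. The 10 genes were chosen with earlier results of these data known, so the count and the median describe the list and test nothing. In CPM, the groups did not overlap for 9 of the 10, with 8 higher and 1 (Cd160) lower, beside 34.6% of all tested genes higher and 33.6% lower without overlap, 68.2% in all. In bulk libraries, fewer cells of a type and less RNA per cell cannot be told apart. The count of 7 was 4 when either E4BP4-cKO replicate 2 or wild-type replicate 1 was left out, and 4 when the Xist class was taken as a block, which was chosen after the data were seen. Procr, Pdpn, Havcr2 and Tigit were called under all 13 other settings tried, whereas Lag3 was called under 6, Cd96 under 5 and Lgals9 under 7.

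**Figure D1:**
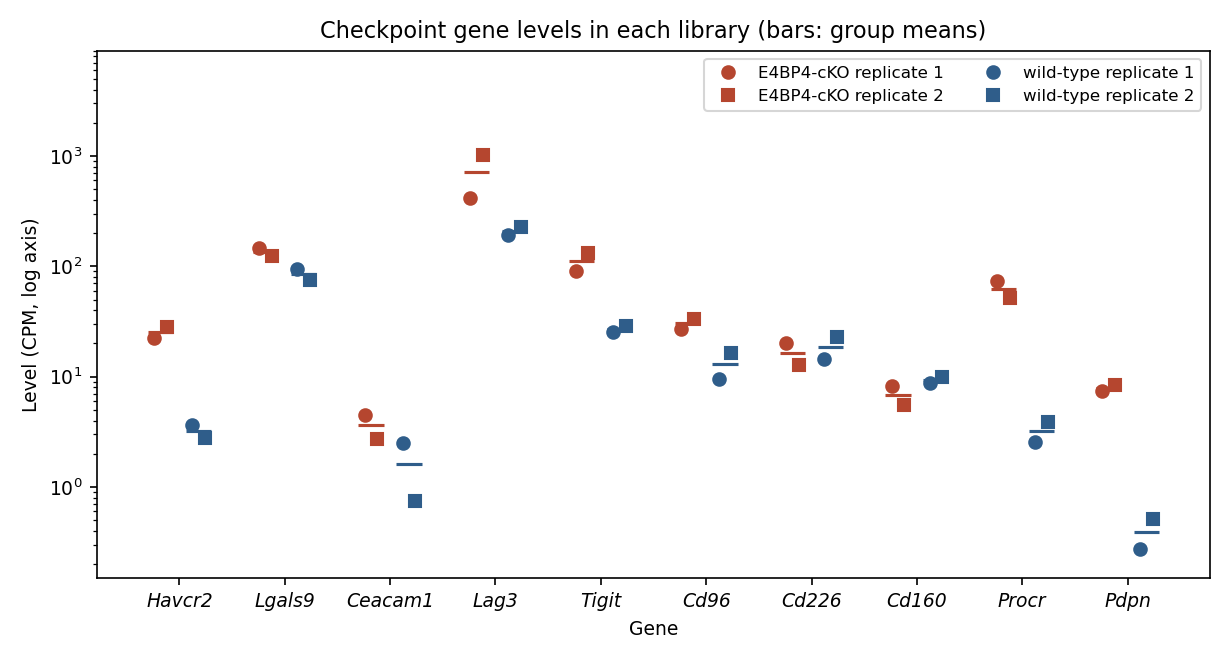
Level of each checkpoint gene in every library, in CPM on a log axis. Points are libraries and short bars are group means (n = 2 each). The E4BP4-cKO libraries of Havcr2, Procr and Pdpn sit at least 6.15 times above the nearest wild-type library, and those of Cd226 overlap with wild-type.

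Havcr2 (ENSMUSG00000020399, chromosome 11, 46454935 to 46481255, plus strand in mm10) stood at 22.5 and 28.4 CPM in the pair labelled E4BP4-cKO, against 3.66 and 2.79 CPM in the pair labelled wild-type. Each E4BP4-cKO library was between 6.15 and 10.2 times above each wild-type library. The log2 fold change was 2.98 (95% interval 2.38 to 3.59, edgeR adjusted p = 0.0141). It ran from 2.79 to 3.18 over the other settings.

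Lgals9 and Ceacam1, which encode ligands of TIM-3, differed less. Lgals9 (chromosome 11, 78962974 to 78984946) stood at 146 and 125 CPM in the pair labelled E4BP4-cKO, against 93.9 and 74.7 CPM in the pair labelled wild-type. The groups did not overlap, and the log2 fold change was 0.69 (SE 0.15, edgeR adjusted p = 0.0459). Its call was lost whichever of the 4 libraries was left out, with log2 fold changes between 0.53 and 0.85. Ceacam1 (chromosome 7, 25461707 to 25477603) stood at 4.50 and 2.73 CPM in the pair labelled E4BP4-cKO, against 2.51 and 0.746 CPM in the pair labelled wild-type. The 2 wild-type libraries lay 3.37 times apart, further than the closest libraries of different groups, and Ceacam1 was not called (log2 fold change 1.17, 95% interval -0.38 to 2.71, edgeR adjusted p = 0.234) except in the fit with no filter on low counts (adjusted p = 0.0213). Of the runs of 50 bases in Ceacam1 transcripts, 30.4% also occur in transcripts of another gene, mainly Ceacam2, so its count is uncertain. For the other 9 genes that share was at most 4.37% (Tigit).

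Lag3 (chromosome 6, 124904361 to 124911705, minus strand) had the highest counts of the 10 genes. It stood at 420.4 and 1025 CPM in the pair labelled E4BP4-cKO, against 192 and 229 CPM in the pair labelled wild-type. The groups did not overlap, but E4BP4-cKO replicate 2 was 2.44 times above replicate 1, while replicate 1 was 1.84 times above the nearer wild-type library. The log2 fold change was 1.78 (95% interval 0.72 to 2.84, edgeR adjusted p = 0.0495). Without E4BP4-cKO replicate 2 it was 1.01 and not called (adjusted p = 0.0643), and without E4BP4-cKO replicate 1 it was 2.28 and called (adjusted p = 0.0156). The call was also lost without either wild-type library. With every library kept, the lowest adjusted p of the other settings was 7.94e-26, in the edgeR fit with no filter on low counts. The next lowest was 0.0215 with DESeq2, and the highest was 0.0783 in edgeR with the Xist class as a block. Among the Xist-rich libraries the one labelled E4BP4-cKO was 5.35 times above the one labelled wild-type, and among those with almost no Xist 1.84 times.

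Of the 3 receptor genes whose products share the ligand CD155, Tigit and Cd96 were higher and Cd226 was not called. The upstream stretch of Tigit above holds the match to the loose D-box form. Tigit (chromosome 16, 43648861 to 43664184, minus strand) stood at 91.5 and 132.5 CPM in the pair labelled E4BP4-cKO, against 25.3 and 28.8 CPM in the pair labelled wild-type. Each E4BP4-cKO library was between 3.17 and 5.24 times above each wild-type library (log2 fold change 2.05, SE 0.20, edgeR adjusted p = 0.0188). Cd96 (chromosome 16, 46035657 to 46120251, minus strand) stood at 27.15 and 33.6 CPM in the pair labelled E4BP4-cKO, against 9.60 and 16.3 CPM in the pair labelled wild-type. Its groups did not overlap, and its log2 fold change was 1.22 (SE 0.29, edgeR adjusted p = 0.0481). The Cd96 call sat close to the threshold. Among other settings, it was lost with upper-quartile factors (edgeR adjusted p = 0.0520) and with E4BP4-cKO replicate 2 left out (log2 fold change 1.08). With every library kept, the lowest adjusted p was 2.20e-07, in the edgeR fit with no filter on low counts. The next lowest was 0.00154 with DESeq2, and the highest was 0.0773 in edgeR with the Xist class as a block.

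Cd226 (chromosome 18, 89197431 to 89270201), the activating receptor gene of the 3, stood at 20.1 and 12.9 CPM in the pair labelled E4BP4-cKO, against 14.5 and 23.0 CPM in the pair labelled wild-type. The groups overlapped, and the means lay closer together than the 2 libraries of either group (log2 fold change -0.18, 95% interval -0.97 to 0.61, edgeR adjusted p = 0.720). That interval still allows a change of nearly 1 on the log2 scale downward. Leaving out E4BP4-cKO replicate 2 or wild-type replicate 2 turned the sign, to 0.11 and 0.19. On levels per length, counts per kilobase of gene scaled to the same total in each library, Tigit exceeded Cd226 by 11.1 and 25.2 times in the pair labelled E4BP4-cKO, against 4.27 and 3.08 times in the pair labelled wild-type. Cd96 exceeded Cd226 by 1.46 and 2.81 times in the pair labelled E4BP4-cKO, whereas in the pair labelled wild-type the ratio was 0.715 and 0.767. Both ratios were higher in each E4BP4-cKO library than in each wild-type library. No test was run on these ratios, for which an exact permutation test over the 4 libraries allows no two-sided p under 0.333.

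**Figure D2:**
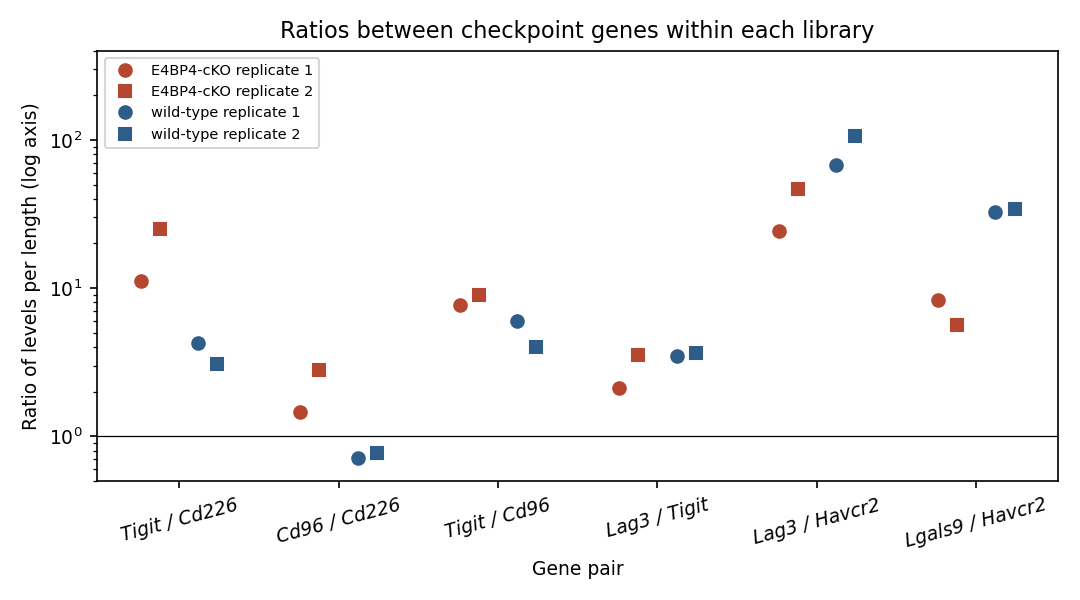
Ratio of levels per length between 2 genes within each library, on a log axis with a line at 1. The ratio of Tigit to Cd226 was 11.1 and 25.2 in the E4BP4-cKO libraries, against 4.27 and 3.08 in the wild-type libraries, and that of Lgals9 to Havcr2 was 8.27 and 5.59 in the E4BP4-cKO libraries, against 32.7 and 34.1 in the wild-type libraries.

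Cd160 (chromosome 3, 96798763 to 96829351), the receptor gene for HVEM, was the 1 gene of the 10 with lower levels in the pair labelled E4BP4-cKO and no overlap. It stood at 8.15 and 5.51 CPM in the pair labelled E4BP4-cKO, against 8.82 and 9.85 CPM in the pair labelled wild-type. The nearest libraries of the 2 groups differed by less than the 2 E4BP4-cKO libraries did, and Cd160 was not called (log2 fold change -0.45, 95% interval -1.11 to 0.22, edgeR adjusted p = 0.284). Of its exon bases, 2.57% are also covered by Pdzk1 on the opposite strand, and no strand setting of the counting is stated in the labels or processing notes.

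Procr and Pdpn had the largest log2 fold changes of the 10. Procr (chromosome 2, 155751117 to 155755471, plus strand) stood at 73.8 and 51.5 CPM in the pair labelled E4BP4-cKO, against 2.56 and 3.885 CPM in the pair labelled wild-type. Each E4BP4-cKO library was between 13.3 and 28.8 times above each wild-type library. The log2 fold change was 4.27 (95% interval 3.54 to 5.01, edgeR adjusted p = 0.0123), and the ratio was 20.1 between the Xist-rich libraries and 19 between those with almost no Xist. Pdpn (chromosome 4, 143267431 to 143299564, minus strand) stood at 7.46 and 8.41 CPM in the pair labelled E4BP4-cKO, against 0.274 and 0.510 CPM in the pair labelled wild-type. The wild-type values rest on 6 and 13 counts, near the floor of 3 counts (0.115 to 0.164 CPM). The log2 fold change was 4.30 (95% interval 3.34 to 5.27, edgeR adjusted p = 0.0159). Pdpn passed the filter on low counts through its E4BP4-cKO libraries, with 194 and 154 counts. In both genes the wild-type libraries stood below every E4BP4-cKO library by more than an order of magnitude.

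**Figure D3:**
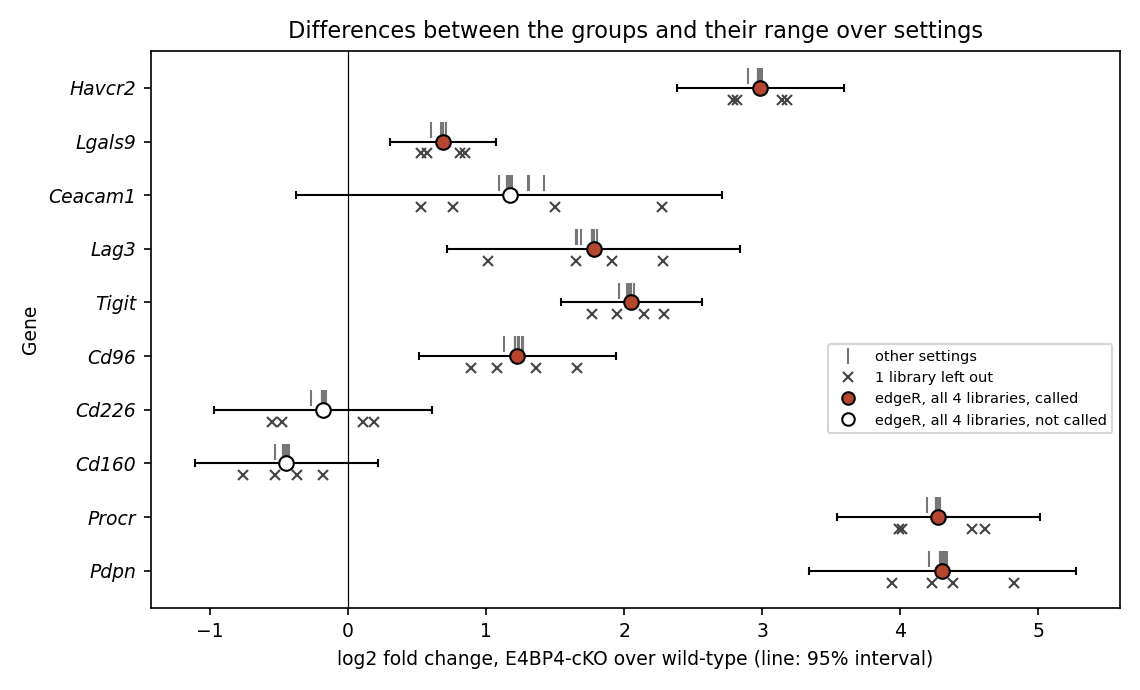
Log2 fold change of each checkpoint gene, E4BP4-cKO over wild-type, with its 95% interval from edgeR. Ticks above each line are other settings and crosses below it are fits with 1 library left out. Procr, Pdpn, Havcr2 and Tigit keep to the right of 1 throughout, while Lag3 runs from 1.01 to 2.28 and Cd226 lies on both sides of 0.

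Levels of different genes are compared per length. Lag3 was the highest of the 10 in both groups, at 963 ± 555 in the pair labelled E4BP4-cKO and 314 ± 45.6 in the pair labelled wild-type (level per length, mean ± SD, n = 2 each). In the pair labelled E4BP4-cKO the order after Lag3 was Tigit, Lgals9, Procr, Cd96, Havcr2, Cd226, Pdpn, Cd160 and Ceacam1, and of these neighbours only Havcr2 and Cd226 overlapped between libraries. In the pair labelled wild-type it was Lgals9, Tigit, Cd226, Cd96, Cd160, Procr, Havcr2, Ceacam1 and Pdpn, and the neighbours Cd226 and Cd96, Procr and Havcr2, and Ceacam1 and Pdpn overlapped. Procr, at 87.3 ± 23.5, ranked above 87.2% of all tested genes in the pair labelled E4BP4-cKO, and at 5.004 ± 1.55 above 30.5% of them in the pair labelled wild-type. Havcr2, at 26.4 ± 3.88, ranked above 63.7% in the pair labelled E4BP4-cKO, and at 3.72 ± 0.636 above 26.4% in the pair labelled wild-type. Lag3 made up 45.7% and 65.2% of the summed level per length of the 10 genes in the pair labelled E4BP4-cKO and 51.0% and 54.9% in the pair labelled wild-type, so its share overlapped between the groups. That sum was 1250 and 2080 in the pair labelled E4BP4-cKO, against 552 and 631 in the pair labelled wild-type.

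The genes also differed in how they ranked the 2 libraries of a group. Lag3, Tigit, Cd96, Havcr2 and Pdpn were higher in E4BP4-cKO replicate 2 than in replicate 1, and Procr, Lgals9, Ceacam1, Cd226 and Cd160 were higher in replicate 1. By the distance between log2 CPM profiles centred on each gene's mean over the 4 libraries, the most alike pair was Cd226 and Cd160 (0.448), followed by Lag3 and Tigit (0.647) and Havcr2 and Pdpn (0.690). Among 13432 genes with a mean of at least 1 CPM, the profile nearest to Havcr2 was that of Slc45a3 (distance 0.026), at 22.1 and 27.7 CPM in the pair labelled E4BP4-cKO and 3.61 and 2.79 CPM in the pair labelled wild-type. Ltb4r1 (0.136), a leukotriene B4 receptor gene, and Ifitm1 (0.233) came next. For Tigit the nearest were Arhgef40 (0.072), the zinc finger gene Zbtb32 (0.194) and the zinc transporter gene Slc30a2 (0.202), and for Lag3 Rab34 (0.229) and Trib2 (0.260) were among the nearest. These distances rest on 4 libraries and carry no p.

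Of 22 listed ligands and partners of these receptors, 15 were tested. Of these, 1 was higher and 4 were lower in the pair labelled E4BP4-cKO, beside 7.68% and 6.53% of all genes tested. The median log2 fold change of the list was 0.08. The higher one was F2r, which encodes the thrombin receptor PAR1 through which the protein C receptor signals in endothelium. F2r stood at 457 and 269.5 CPM in the pair labelled E4BP4-cKO, against 75.1 and 35.0 CPM in the pair labelled wild-type (log2 fold change 2.72, SE 0.44, edgeR adjusted p = 0.0291). Procr was higher in the same pair, but ran the other way within the pair labelled wild-type (2.56 and 3.885 CPM). Over the 4 libraries F2r had the order of the summed mast cell and basophil markers and of the summed macrophage markers given below. The part of such cells in its level was not tested. The lower ones were Btla, which like Cd160 encodes a receptor for HVEM, Nectin1, whose product binds mouse CD96, Cd74, the MHC class II invariant chain gene, and Hmgb1, a TIM-3 ligand gene, with log2 fold changes of -1.70, -2.33, -1.49 and -0.57. Btla stood at 134.4 and 77.8 CPM in the pair labelled E4BP4-cKO, against 353 and 336 CPM in the pair labelled wild-type. With upper-quartile factors, Cd74 was not called (edgeR adjusted p = 0.0523). The summed B cell markers given below were also lower in the pair labelled E4BP4-cKO. The part of B cells in the levels of these lower genes was not tested. The MHC class II genes H2-Aa, H2-Ab1 and H2-Eb1, named after their values were seen, were not called by edgeR (log2 fold changes 0.31, 0.08 and -0.12). Pvr, the shared ligand gene of TIGIT, CD96 and CD226, was chosen after its values were seen and was not called by edgeR, at 39.45 and 52.5 CPM in the pair labelled E4BP4-cKO, against 28.25 and 30.6 CPM in the pair labelled wild-type (log2 fold change 0.64, SE 0.17, edgeR adjusted p = 0.0616), while DESeq2 called it higher (adjusted p = 0.0213). By edgeR neither was Nectin2 (0.93, adjusted p = 0.0961) or Tnfrsf14 (0.25, adjusted p = 0.232), which were named likewise. The 5 calls of this list became 2 when either E4BP4-cKO replicate 2 or wild-type replicate 1 was left out, and 2 with the Xist class as a block.

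Of 13 signalling and shedding partners, all tested, 2 were higher and 1 lower in the pair labelled E4BP4-cKO. The shares over all genes tested were 7.68% and 6.53%, and the median log2 fold change of the list was -0.14. Inpp5d, which encodes the inhibitory phosphatase SHIP-1, stood at 148.6 and 156.8 CPM in the pair labelled E4BP4-cKO, against 96.1 and 94.7 CPM in the pair labelled wild-type (log2 fold change 0.68, SE 0.10, edgeR adjusted p = 0.0270). Plcg1, a phospholipase gene of T cell activation, was also higher (0.74, adjusted p = 0.0486). The kinase gene Fyn, whose product can bind the TIM-3 tail, stood at 248.5 and 252 CPM in the pair labelled E4BP4-cKO, against 545 and 447.5 CPM in the pair labelled wild-type (-0.99, SE 0.14, adjusted p = 0.0270). Adam10, a protease gene for the shedding of LAG-3 and TIM-3, was not called by edgeR (-0.39, adjusted p = 0.0797) and was called lower by DESeq2 (adjusted p = 0.0408). The list had 0 calls when either E4BP4-cKO replicate 2 or wild-type replicate 1 was left out, and 1 with the Xist class as a block.

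Of 16 genes of the IL-27 pathway and known regulators of co-inhibitory receptors, 7 were higher and 2 lower in the pair labelled E4BP4-cKO by edgeR. Over all genes tested these shares were 7.68% and 6.53%, and the median log2 fold change of the list was 0.72. Nfil3, the targeted gene, is 1 of the 7 (3.81, adjusted p = 0.00396). Both subunits of IL-27 were among the higher. Il27, which encodes the p28 subunit, rested on 127 and 95 counts in the pair labelled E4BP4-cKO, against 6 and 3 in the pair labelled wild-type (log2 fold change 4.67, SE 0.46, edgeR adjusted p = 0.0183). Like Pdpn, Il27 passed the filter on low counts through its E4BP4-cKO libraries. Ebi3 stood at 11.5 and 14.5 CPM in the pair labelled E4BP4-cKO, against 3.57 and 4.24 CPM in the pair labelled wild-type (1.74, SE 0.24, adjusted p = 0.0253). Il10, the gene of an inhibitory cytokine, stood at 6.69 and 5.295 CPM in the pair labelled E4BP4-cKO, against 2.01 and 1.77 CPM in the pair labelled wild-type (1.67, SE 0.29, adjusted p = 0.0304). The 3 genes were higher without overlap between the groups, as 34.6% of all genes tested were.

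The 3 remaining higher genes, named after their values were seen, were Prdm1 (log2 fold change 1.83, SE 0.37, edgeR adjusted p = 0.0387), Ahr (1.06, adjusted p = 0.0483) and Stat3 (0.78, adjusted p = 0.0476), which encode transcription factors downstream of cytokine or ligand signals. Prdm1 stood at 10.0 and 20.1 CPM in the pair labelled E4BP4-cKO, against 4.30 and 4.12 CPM in the pair labelled wild-type. Its partner in the co-inhibitory group, Maf, stood at 23.0 and 26.0 CPM in the pair labelled E4BP4-cKO, against 15.04 and 9.77 CPM in the pair labelled wild-type, without overlap. It was not called by edgeR (0.98, SE 0.25, adjusted p = 0.0539) and was called higher by DESeq2 (adjusted p = 0.00625) and limma-voom (adjusted p = 0.0434). The receptor gene Il27ra was not called by edgeR (-0.39, SE 0.11, adjusted p = 0.0744) and was called lower by DESeq2 (adjusted p = 0.0442), at 74.8 and 85.9 CPM in the pair labelled E4BP4-cKO, against 108 and 102 CPM in the pair labelled wild-type. Both were chosen after their values were seen. The lower genes were Tox, a factor of exhausted T cells, at 5.65 and 5.404 CPM in the pair labelled E4BP4-cKO against 29.35 and 14.0 CPM in the pair labelled wild-type (-1.97, SE 0.38, adjusted p = 0.0356), and Tbx21, the Th1 factor gene (-0.80, SE 0.18, adjusted p = 0.0473). The 9 calls of this list became 2 when E4BP4-cKO replicate 2 was left out, 3 when wild-type replicate 1 was, 5 when wild-type replicate 2 was, and 2 with the Xist class as a block. The list was chosen with earlier results of these data known.

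**Figure D4:**
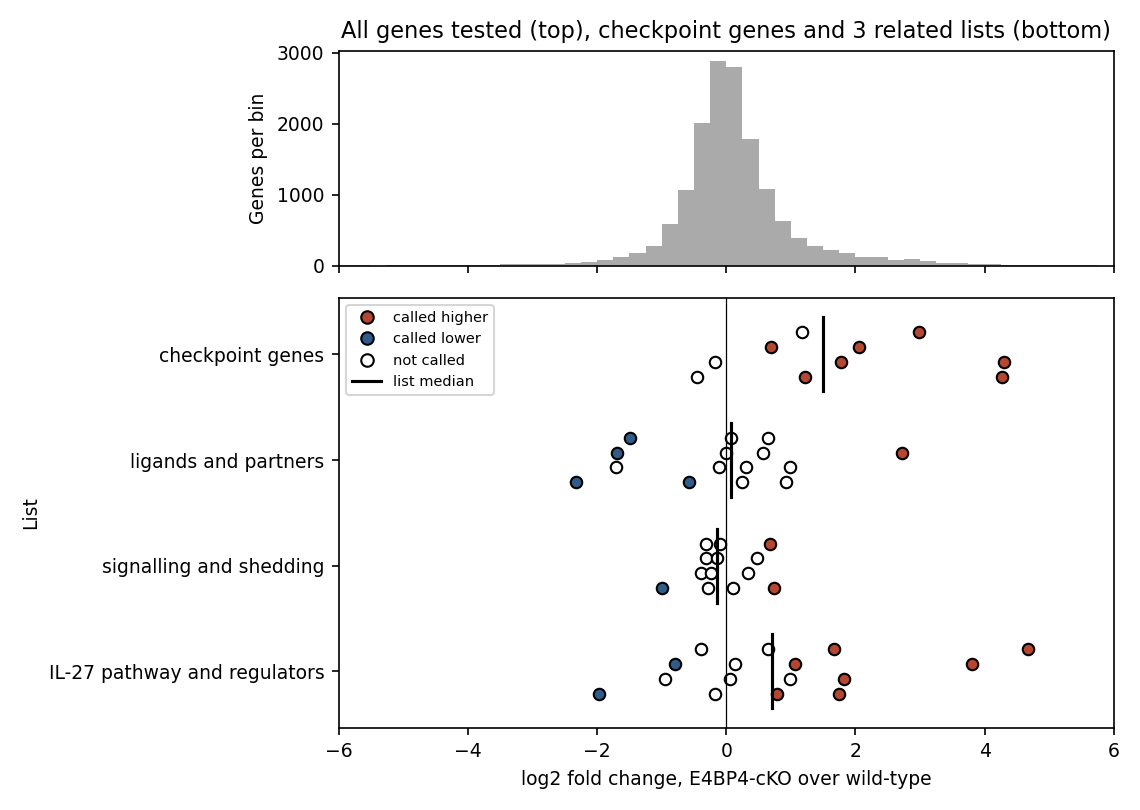
Log2 fold changes, E4BP4-cKO over wild-type, of all 15503 genes tested (top, in bins of 0.25, axis cut at -6 and 6) and of the checkpoint genes and 3 related lists (bottom). Filled points were called and black bars are list medians, which stand at 1.5, 0.08, -0.14 and 0.72 from top to bottom; vertical offsets within a list only separate the points.

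Markers of some other cells moved with the labels. Over all genes tested, 7.68% were called higher and 6.53% lower. Macrophage, monocyte and dendritic cell markers had 7 of 9 genes higher and 0 lower (edgeR; 0 lower also at an unadjusted p under 0.05, with DESeq2 and with limma-voom), with summed levels of 341 and 231 CPM in the pair labelled E4BP4-cKO and 52.6 and 18.5 CPM in the pair labelled wild-type. The 4 with the lowest p were Cd68, Cd14, Fcer1g and Csf1r, with log2 fold changes of 2.68, 4.67, 2.69 and 3.63. Mast cell and basophil markers had 4 of 8 higher (Cpa3, Kit, Tpsb2 and Mcpt4) and 0 lower (0 lower by the same other counts), with sums of 1830 and 1350 CPM in the pair labelled E4BP4-cKO, against 875 and 95 CPM in the pair labelled wild-type. B cell markers had 2 of 6 lower, Ighm and Igkc, and 0 higher (0 higher by the same other counts), with sums of 77.2 and 37.7 CPM in the pair labelled E4BP4-cKO, against 373 and 370 CPM in the pair labelled wild-type. Ms4a1 (-2.40) and Cd79a (-0.82) were not called. Of 6 CD8 and NK cell markers, Prf1, the perforin gene, was called, higher in the pair labelled E4BP4-cKO (2.35, edgeR adjusted p = 0.0359). Eomes stood at 11.5 and 24.7 CPM in the pair labelled E4BP4-cKO, against 28.0 and 41.4 CPM in the pair labelled wild-type. It was not called by edgeR (-0.95, adjusted p = 0.152). Cd8a (0.76, without overlap) and Cd8b1 (-0.02) were not called, Ncr1 was at 0 in every library and Klrb1c had at most 2 counts. Of the 5 stroma and endothelium markers, 0 were called (1 higher and 0 lower at an unadjusted p under 0.05, 1 higher with DESeq2 and 0 with limma-voom), with log2 fold changes of 0.88 for Pecam1, -0.81 for Col1a1 and 0.66 for Epcam. Cdh5 and Col3a1 had at most 1 count in any library.

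Macrophages and dendritic cells are known to express Havcr2, Lgals9, Ceacam1 and Il27, and the part of these cells in the results was not tested. Across the 4 libraries Lgals9 and Ceacam1 stood in the same order as the summed mast cell and basophil markers and the summed macrophage markers, highest in E4BP4-cKO replicate 1 and lowest in wild-type replicate 2. Procr and Pdpn did not follow that order: wild-type replicate 1 had 875 CPM of mast cell and basophil markers and 2.56 CPM of Procr, and wild-type replicate 2 had 95 and 3.885 CPM. Much of that sum in wild-type replicate 1 was Prss34 (545 CPM) and Mcpt8 (142 CPM), named after their values were seen. In wild-type replicate 2, Prss34 and Mcpt8 stood at 23.9 and 7.81 CPM. Havcr2, Lag3, Tigit and Cd96 were higher in E4BP4-cKO replicate 2, which had the lower sums of both marker lists, than in replicate 1. Not every marker followed its list's sum. Kit, a mast cell marker, had Procr's order over the 4 libraries. It stood at 47.3 and 21.2 CPM in the pair labelled E4BP4-cKO, against 7.95 and 8.87 CPM in the pair labelled wild-type. Tpsb2 and Mcpt4, at no more than 7 counts in wild-type libraries, had that order too, and the other mast cell and basophil markers did not. The dendritic cell marker Itgax, named after its values were seen, also had it, and the other markers of its list did not. Cd68 stood at 27.1 and 40.6 CPM in the pair labelled E4BP4-cKO, against 6.40 and 4.16 CPM in the pair labelled wild-type, the same order over the 4 libraries as Havcr2, and the mast cell marker Ms4a2, named after its values were seen, had that order too.

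**Figure D5:**
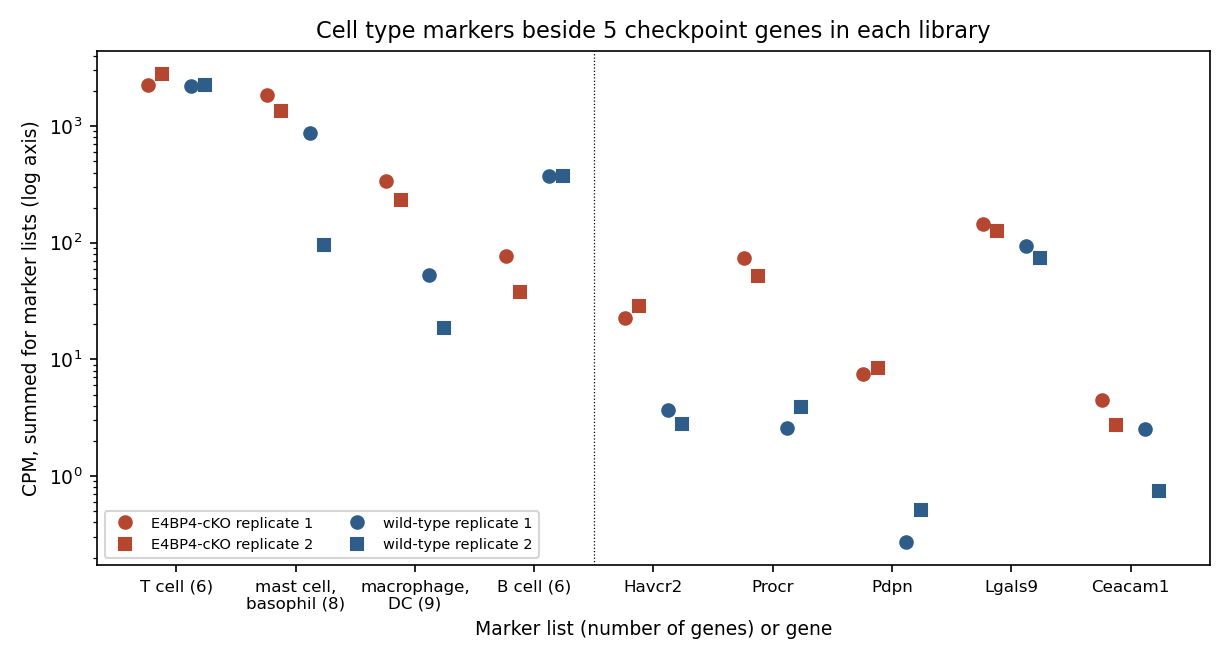
Summed CPM of 4 marker lists (left of the dotted line) and CPM of 5 checkpoint genes (right) in each library, on a log axis. The mast cell and basophil sum was 875 and 95 CPM in the 2 wild-type libraries, whose Procr and Havcr2 levels lay between 2.56 and 3.885 CPM. Of these 2 sums, the single gene Prss34 held 545 and 23.9 CPM.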

How the data were processed

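The authors deposited 1 table of whole-number counts of reads per gene for 4 libraries, not normalised, with gene coordinates and a gene length. The submitters' processing notes name CASAVA, HISAT2, featureCounts and the build mm10. Those sources give no version, annotation release or strand setting. Columns were matched to samples by title and groups taken from the genotype in the labels. Sampling noise did not account for the difference between libraries of 1 group (chi-square per degree of freedom 20.5 for E4BP4-cKO and 16.0 for wild-type).

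Genes were kept with filterByExpr (15503 of the 28039 genes with a count), scaled with TMM factors (0.962 to 1.04) and tested with edgeR 4.0.16 (glmQLFit, glmQLFTest) in R 4.3.3, two-sided, with Benjamini-Hochberg adjustment over all genes. Intervals are at 95%. Distances used log2(CPM + 0.5). DESeq2 1.42.0 and limma-voom (limma 3.58.1) were alternatives, with other factors, filters, blocks and each library left out. Members and lists were chosen with earlier results of these data known. From each list up to 4 genes with the lowest p and every gene of a count of 5 or fewer were named. For Lag3, 1 gene that the likeness rule names is not reported here. Proteins were not analysed here. Overlap was read from GENCODE M21 on GRCm38.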

Additional observations from a re-analysis of the deposited data

How the results depend on the processing

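The 10 checkpoint genes kept their direction under all 13 other settings, except Cd226, whose log2 fold change ran from -0.55 to 0.19 when 1 library was left out. When 1 library was left out, the count of checkpoint genes called, all higher, ran from 4 to 5 instead of 7, the counts over all genes from 246 to 954 higher and from 74 to 806 lower, and the calls in the ligand, signalling and IL-27 lists from 2 to 4, from 0 to 4 and from 2 to 6. With the Xist class as a block (chosen after the data were seen) 4 checkpoint genes, 390 genes higher and 190 lower over the table, and 2, 1 and 2 genes of these lists were called. Without a filter on low counts 2680 genes were higher and 2237 lower, with 8 calls in the ligand list and 5 in the signalling list. With DESeq2 1834 were higher and 1676 lower, with 6 calls in the signalling list. Scaling to total library size gave 1033 higher and 1636 lower genes, so that 38.7% of calls were higher instead of 54.0%. The median log2 fold change over all genes was then -0.07, instead of 0.02. The TMM factors that this setting leaves out were 0.98 and 0.962 in the pair labelled E4BP4-cKO. In the pair labelled wild-type they were 1.02 and 1.04. Why the factors differed between the groups was not tested. Cxcr5 had log2 fold changes from -0.23 to 0.32 when 1 library was left out and -0.03 under total library size, and Cd8b1 from -0.12 to 0.10 and 0 under upper-quartile factors. With the replicate number as a block 7 checkpoint genes were called, and Eomes was called lower (edgeR adjusted p = 0.0387). The labels give no sign that the numbers pair the libraries, and deviations of same-numbered libraries correlated at 0.0559 across genes.

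Depth limited Pdpn and Il27 in the libraries labelled wild-type, which had at most 13 counts each. A floor of 3 counts was worth 0.115 to 0.164 CPM and covers counting error only.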
